A study of Mus musculus with 4 samples.

Results

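The replication-dependent histone genes encode the linker histone H1 and the core histones H2A, H2B, H3 and H4 that package newly copied DNA. They were taken here as every gene whose name begins with Hist1h, Hist2h, Hist3h or Hist4h in the deposited tables of gene features and of CpG island features. The rule found 68 of the 28777 genes in the gene table. They supplied 98 of 55200 gene features, which were 68 promoters (1 kb centred on the transcription start) and 30 gene bodies beyond the promoter. Of these genes, 50 are named in the island table too, and they supplied 265 of 80045 rows, made up of 53 CpG islands, 106 shores and 106 shelves, the zones that flank an island. The Hist1 cluster on chromosome 13 held 55 of the promoters, Hist2 on chromosome 3 held 10, Hist3 on chromosome 11 held 2 and Hist4 on chromosome 6 held 1.

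The assay was reduced representation bisulfite sequencing (RRBS) of DNA methylation, in which MspI cuts DNA at CCGG and reads come mostly from CpG-rich fragments. All libraries came from CGR8 mouse embryonic stem cells, a line kept in serum and LIF. The netrin-1 group (2 libraries) was stably transfected with a netrin-1 transgene in the ppy-cagg-ires-puro vector (netrin-1 is a secreted laminin-related signalling protein), and the control group (2 libraries) with the empty vector; the question was whether exogenous netrin-1 goes with another methylation profile. Both groups carry the vector backbone, and whether replicates came from separate clones or cultures is not stated in the labels, so the p-values measure a spread that may be technical. A methylation level is the percent of cytosine calls that were methylated. The gene table held 36269454 and 53293458 calls in the netrin-1 libraries, against 31452170 and 41964981 calls in the control libraries. Among promoters of embryonic stem cell genes, 6 of 7 reached 10 calls in each library, and their median level was 0.810%. Esrrb, which encodes a pluripotency factor, was the exception at 49.4% and 14.8% in netrin-1, against 51.7% and 9.43% in control cells, while Nanog had no calls.

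Replication-dependent histone genes lie in dense clusters, lack introns as a rule, and are transcribed mainly in S phase, when NPAT drives them. Their mRNAs end in a stem-loop bound by SLBP in place of a poly(A) tail. Many H2A and H2B genes stand head to head and share a promoter, and a few members, such as Hist1h1t, Hist1h2aa and Hist1h2ba, encode variants best known from male germ cells. Their promoters are usually CpG-rich and unmethylated in dividing cells.

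RefSeq promoter sequences (GRCm38.p6, 250 bases before to 50 after the start, 5′ to 3′ on the gene's strand) were matched for 60 of the 68 genes. Those of 4 genes are shown, chosen after the values were seen, with CG dinucleotides, the positions that can be methylated, in capitals. Hist1h2ba (chr13:23934107-23934406, minus strand) and Hist1h2ab (chr13:23750838-23751137, plus strand) had the promoters with the highest levels of H2B and H2A, Hist1h1b (chr13:21780576-21780875, minus strand) had the deepest H1 promoter, and Hist1h2ag (chr13:22042900-22043199, minus strand) had a promoter with no calls.
Hist1h2ba: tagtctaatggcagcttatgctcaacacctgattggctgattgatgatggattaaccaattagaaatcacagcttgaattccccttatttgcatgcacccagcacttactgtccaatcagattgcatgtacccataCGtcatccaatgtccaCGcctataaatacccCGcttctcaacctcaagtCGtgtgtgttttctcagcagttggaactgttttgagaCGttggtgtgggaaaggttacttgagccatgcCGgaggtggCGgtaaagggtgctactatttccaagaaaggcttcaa
Hist1h2ab: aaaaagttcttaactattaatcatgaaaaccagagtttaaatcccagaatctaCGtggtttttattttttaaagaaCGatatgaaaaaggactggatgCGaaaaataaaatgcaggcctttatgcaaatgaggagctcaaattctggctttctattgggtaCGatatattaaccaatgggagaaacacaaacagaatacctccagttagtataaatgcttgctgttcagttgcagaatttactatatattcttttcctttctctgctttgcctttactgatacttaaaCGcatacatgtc
Hist1h1b: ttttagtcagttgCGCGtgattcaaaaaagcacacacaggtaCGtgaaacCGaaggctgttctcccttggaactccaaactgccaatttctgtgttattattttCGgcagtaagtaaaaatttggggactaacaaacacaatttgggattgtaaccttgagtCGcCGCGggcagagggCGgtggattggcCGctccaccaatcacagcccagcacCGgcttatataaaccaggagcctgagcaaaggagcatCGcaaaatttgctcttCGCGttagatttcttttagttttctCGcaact
Hist1h2ag: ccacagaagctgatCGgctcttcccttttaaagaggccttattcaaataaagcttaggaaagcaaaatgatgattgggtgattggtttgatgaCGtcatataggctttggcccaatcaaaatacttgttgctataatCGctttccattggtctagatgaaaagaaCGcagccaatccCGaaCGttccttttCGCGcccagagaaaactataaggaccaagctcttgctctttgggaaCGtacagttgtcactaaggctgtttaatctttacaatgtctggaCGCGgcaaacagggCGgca
These held 7, 5, 15 and 12 CG dinucleotides in the order shown, and 1, 0, 1 and 0 CCGG sites.

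The promoters held classical histone elements more often than RefSeq promoters in general. Searched on both strands, the letters CCAAT stood in 51 of 60 histone promoters (85%) and in 37.4% of all 32817 RefSeq promoters. They stood in every matched H1, H2A, H2B and H3 promoter but in only 3 of 12 H4 promoters. TATAAA stood in 34 of 60 histone promoters (56.7%), against 13.6% of all. The octamer ATTTGCAT, the letters recognised by the OCT1 factor, stood in 7 of 16 H2A and 6 of 16 H2B promoters and in no matched H1, H3 or H4 promoter. That made 13 of 60 histone promoters (21.7%), against 1.74% of all. None of these motifs contains another, and a match describes the letters of the window only. Of the 68 histone promoters, 24 overlap another in head-to-head H2A and H2B pairs, so letters that a pair shares were counted for both genes.

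Calls were missing from many histone promoters, most of them H2A and H2B promoters of Hist1. Of the 68 promoters, 28 had no calls in any library, 6 had calls but fewer than 10 in some library, and the remaining 34 reached 10 in each. The 68 lie in 56 separate loci, so these counts hold some loci more than once. All 28 empty promoters were among the 55 of Hist1, and none was among the 10 of Hist2. At least 10 calls in every library were reached by 5 of 6 H1, 8 of 19 H2A, 9 of 18 H2B, 4 of 12 H3 and 8 of 13 H4 promoters. The H1 promoter without calls was that of Hist1h1t, the testis linker histone. Of the 64 histone promoters that the table marks as island promoters, 26 (40.6%) had no calls, against 262 of 12328 other island promoters (2.12%).

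The MspI site was scarce in the same promoters. CCGG stood in 20 of 60 matched histone promoters (33.3%), against 52.8% of all RefSeq promoters, with or without an island. Among island promoters alone, CCGG stood in 18 of 56 histone promoters (32.1%), against 7281 of 8170 others (89.1%). It stood in 5 of 6 H1, 7 of 12 H4, 4 of 10 H3, 3 of 16 H2B and 1 of 16 H2A promoters. Of 26 matched promoters with no calls, 25 lacked CCGG, Hist1h1t being the exception, and of 28 with at least 10 calls in every library, 12 lacked it. Among island promoters without CCGG, 24 of 38 histone promoters (63.2%) and 88 of 889 others (9.90%) had no calls. With CCGG, the counts were 0 of 18 histone promoters and 62 of 7281 others (0.852%). Overlapping head-to-head promoters were counted separately here too, so these are not counts of independent promoters. The sequence window of 300 bases is shorter than the promoter of the gene table, this comparison was added after the data were seen, and the part that fragment size or read mapping plays in the missing calls was not tested. Stretches of 75 bases that recur in another RefSeq promoter, where reads of that length could come from either copy, were found in 4 of the 26 empty promoters, among them Hist1h2bq and Hist1h2br, and in 2 of the 28 covered ones, Hist2h3c2 and Hist1h4n. The levels given for those 2 are therefore uncertain. Promoters without a matched sequence were not searched for repeats, among them the covered ones of Hist2h2aa1, Hist2h2aa2, Hist2h2be, Hist2h4, Hist1h3f and Hist1h2bc.

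**Figure D1:**
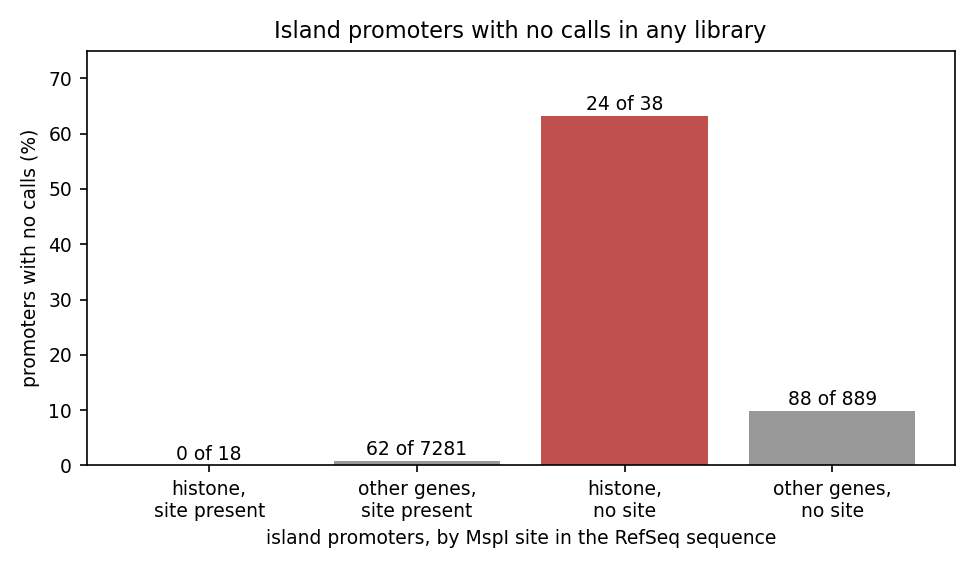
Percent of island promoters with no calls in any library (y axis), for histone genes and other genes, with or without an MspI site in the RefSeq promoter sequence (x axis); the counts stand above the bars. Histone promoters without a site had no calls in 24 of 38 cases, against 88 of 889 promoters of other genes without a site.

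The promoters that were measured were almost unmethylated in both groups. Of the 34, 31 had a mean level under 5%, none was above 10%, and the median was 1.16%, against 1.23% over 16057 other promoters. Averaged over the 34 members, promoters stood at 1.16% and 1.69% in the netrin-1 libraries, against 1.75% and 2.81% in the control libraries. The groups did not overlap, but netrin-1 replicate 2 and control replicate 1 almost met. The means were 1.42% ± 0.376 in netrin-1 and 2.28% ± 0.7503 in control cells (SD, n = 2 each), a difference of -0.856 percentage points (exact two-sided permutation p = 0.333, the smallest that 2 libraries against 2 can give). Without control replicate 2 the difference was -0.275 points, over a set that also takes in Hist1h4j, which had no calls in that library. Without the Hist1h2ba and Hist1h2aa promoters the difference was -0.642 points with groups that overlapped. Other promoters differed by -0.677 points, and the histone promoters taken relative to them within each library by -0.178 points (exact permutation p = 0.667). These others include promoters without an island, which differed by -2.06 points. Against other promoters under 10% only, the relative difference was -0.599 points (exact permutation p = 0.667). The 32 histone promoters left without that pair all have an island, and 11814 other island promoters differed by -0.181 points. The histone promoters were thus not shown to differ from the rest, and the size of the relative difference depends on the promoters compared.

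Single promoters mostly overlapped between groups. Both netrin-1 libraries lay below both controls at 11 of the 34 promoters and above them at 3. Over all promoters these shares were 21.0% and 13.2%. Of the 34, 4 could be tested one by one, since the others held too few methylated calls. None of the 6 histone gene features tested (4 promoters and 2 bodies) passed an adjusted p of 0.05 in the moderated quasi-binomial test, where 0.00581% of all 17209 tested gene features did. At an unadjusted p under 0.05 in the same test, 3 of the 6 were lower in netrin-1 cells. They were the Hist1h2be body and the overlapping Hist1h2ba and Hist1h2aa promoters, which are 1 locus. The background was 12.8% in either direction, and 2056 of those 2209 features were lower. Without the information minimum, 38 histone gene features were tested and 0 were called, against 0.216% of all.

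**Figure D2:**
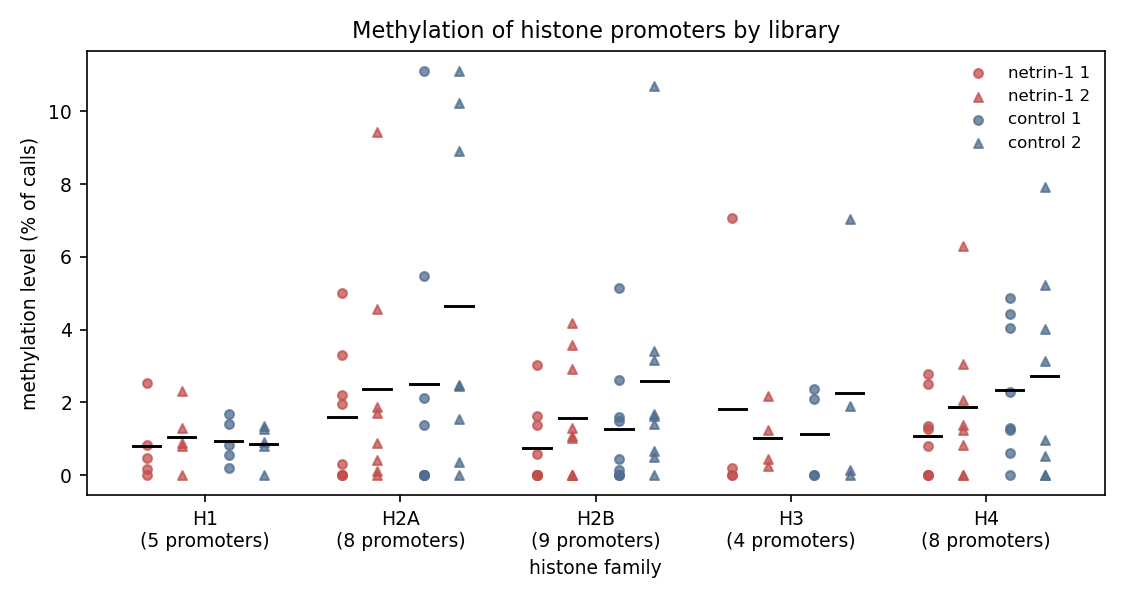
Methylation level in percent of calls (y axis) of each histone promoter with at least 10 calls in every library, by histone family (x axis) and library; each point is 1 promoter and each black line the mean of its library. Most points lie under 5%, and the H2A and H2B columns of the controls carry the highest ones, from Hist1h2ab, Hist1h2aa and Hist1h2ba.

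The linker histone promoters had the lowest control mean of the 5 families. H1 proteins bind the DNA between nucleosomes, and their 5 measured promoters averaged 0.929% ± 0.186 in netrin-1 and 0.898% ± 0.0461 in control cells (SD, n = 2 each; exact permutation p = 1). Hist1h1b, the deepest with 5767 calls over the 4 libraries, stood at 0.469% and 0.880% in netrin-1, against 0.565% and 0.797% in control cells, and the groups overlapped. Hist1h1d, another somatic H1 gene, had no methylated call among 1043 in netrin-1 cells, which allows a level of up to 0.288% from counting error alone, against 0.822% and 0% in control cells. Hist1h1e was 1 of the 3 promoters higher in both netrin-1 libraries, at 2.52% and 2.30% in netrin-1, against 1.68% and 1.26% in control cells.

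H2A and H2B pair as dimers that flank the central part of the nucleosome. The 8 measured H2A promoters averaged 1.99% ± 0.553 in netrin-1 and 3.57% ± 1.50 in control cells, and the 9 H2B promoters 1.15% ± 0.588 in netrin-1 and 1.92% ± 0.923 in control cells (SD, n = 2 each). The H2A groups did not overlap (exact permutation p = 0.333) and the H2B groups did (p = 0.667 in the same exact test). Hist1h2ba, the testis H2B gene, stood at 3.03% and 3.58% in netrin-1, against 5.15% and 10.7% in control cells. Its neighbour Hist1h2aa, the testis H2A gene, stood at 3.29% and 4.57% in netrin-1, against 5.47% and 10.2% in control cells. In both, all netrin-1 values lay below all controls and control replicate 2 was well above the rest. The differences were -4.62 points (adjusted p = 0.249, quasi-binomial test, 0.0628 to 0.852 over its 12 alternatives) and -3.93 points (adjusted p = 0.370, 0.243 to 0.929 over the same alternatives). These genes are divergent, their promoters overlap in the table (chr13:23933656-23934656 and chr13:23933962-23934962), and neither has a CpG island, so they are 1 locus rather than 2 observations. They were also the only measured histone promoters without an island, and the 4243 other promoters without one stood at 18.1% ± 0.621 in netrin-1 and 20.2% ± 0.241 in control cells.

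Hist1h2ab, a somatic H2A gene with an island (promoter chr13:23750626-23751626), had the highest mean level of any measured histone promoter. It stood at 5% and 9.43% in netrin-1, against 11.1% and 11.1% in control cells. Both netrin-1 values lay below the controls, on 36 to 106 calls per library, too few methylated calls for a test. Hist1h2bm, an H2B gene, stood at 1.38% and 0% in netrin-1, against 2.61% and 3.42% in control cells. At the other end, Hist1h2ad and Hist2h2bb had no methylated call in any library, which allows levels of up to 1.22% and 0.709% in netrin-1 and 0.794% and 0.610% in control cells. Hist3h2ba, the deepest H2B promoter with 7819 calls, stood at 0.574% and 1.30% in netrin-1, against 1.48% and 1.68% in control cells, and Hist3h2a, its neighbouring H2A gene, at 0.314% and 0.888% in netrin-1, against 0% and 0.366% in control cells.

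H3 and H4 form the central tetramer of the nucleosome. The 4 measured H3 promoters averaged 1.42% ± 0.565 in netrin-1 and 1.69% ± 0.814 in control cells (SD, n = 2 each; exact permutation p = 0.667). Hist1h3f was the most methylated of them, at 7.08% and 1.23% in netrin-1, against 2.37% and 7.04% in control cells, so that its replicates disagreed within each group. Hist1h3d, the deepest with 2349 calls, stayed under 0.5% in every library. The 8 H4 promoters averaged 1.47% ± 0.548 in netrin-1 and 2.54% ± 0.269 in control cells, and the groups did not overlap (exact permutation p = 0.333). Hist1h4f was among the lower ones, at 0.787% and 3.05% in netrin-1, against 4.42% and 7.92% in control cells. Hist1h4c stood at 1.36% and 2.07% in netrin-1, against 4.04% and 4.03% in control cells. Hist1h4n was higher in both netrin-1 libraries, at 2.78% and 1.39% in netrin-1, against 0% and 0.952% in control cells, with the doubt over its repeated sequence given above. Hist1h4a, tested on 481 to 667 calls per library, stood at 2.50% and 6.30% in netrin-1, against 4.88% and 5.24% in control cells (adjusted p = 0.959, quasi-binomial test).

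The Hist2 promoters on chromosome 3 were low as well. The 8 measured promoters averaged 0.856% ± 0.0322 in netrin-1 and 1.76% ± 1.37 in control cells (SD, n = 2 each; exact permutation p = 1). Hist2h4, an H4 gene and the deepest histone promoter with 8898 calls, stood at 1.27% and 1.24% in netrin-1, against 1.24% and 3.15% in control cells (adjusted p = 0.583, quasi-binomial test). The other libraries lay close together there and control replicate 2 was higher. Hist2h2aa2, an H2A gene, showed the same library apart, at 1.94% and 1.87% in netrin-1, against 0% and 8.91% in control cells. Hist2h2aa1, the other copy of this gene pair, stood at 0% and 0.127% in netrin-1, against 1.37% and 2.48% in control cells. Neither copy had a matched sequence, so repeats were not searched for in this pair and its levels are uncertain. Hist2h2ac and Hist2h2be, an H2A and an H2B gene, stood between 1.07% and 2.20% in every library, with overlapping groups, and Hist2h2ab and Hist2h3c2 between 0% and 2.45%. Hist2h3c1 and Hist2h3b, which encode H3, had no calls in netrin-1 replicate 1. Hist4h4, the single Hist4 member, stood at 0% and 0.838% in netrin-1, against 0.613% and 0% in control cells.

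Of the 30 gene bodies, 20 had no calls, 3 had fewer than 10 in some library and 7 could be compared. Of these, 5 had mean levels from 0% to 2.08%, and 2 were methylated. The 7 averaged 10.5% ± 3.22 in netrin-1 and 12.4% ± 1.10 in control cells (SD, n = 2 each), a difference of -1.94 points (exact permutation p = 0.667). It was -0.491 points without Hist1h2be, and 18832 other bodies differed by -2.13 points, so that the histone bodies differed relative to them by 0.187 points (exact permutation p = 1). Both netrin-1 libraries lay below both controls at 2 of the 7 and above them at 0, against 33.7% and 7.59% over all bodies.

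The body of Hist1h2be, an H2B gene whose model in the table runs for 37382 bp (body chr13:23583742-23620624), held the largest difference among the bodies. It stood at 20.1% and 18.1% in netrin-1, against 25.8% and 33.7% in control cells, with 1836 to 2461 calls per library. The groups did not overlap, and the difference was -10.7 points (adjusted p = 0.154, quasi-binomial test, 0.00695 to 0.751 over 12 alternatives). By the same quasi-binomial test it passed the threshold when control replicate 1 was left out (adjusted p = 0.0103, where 0.536% of all gene features passed) or netrin-1 replicate 1 was (adjusted p = 0.0164, 2.38% of all). It also passed with the replicate number as a block (adjusted p = 0.00695, 1.65% of all). The body of Hist1h2bc, another H2B gene with a long model, was the most methylated, at 65.9% and 30.5% in netrin-1, against 63.3% and 46.5% in control cells (adjusted p = 0.867). Its replicates differed by more than its groups. The body of Hist2h4 stood at 0.591% and 0.541% in netrin-1, against 0.990% and 1.08% in control cells, groups that did not overlap at a very low level. Those of the linker genes Hist1h1b and Hist1h1c overlapped between groups. Hist1h1b stood at 1.27% and 5.56% in netrin-1, against 1.49% and 0% in control cells, and Hist1h1c at 1.65% and 0.789% in netrin-1, against 1.08% and 0.350% in control cells.

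**Figure D3:**
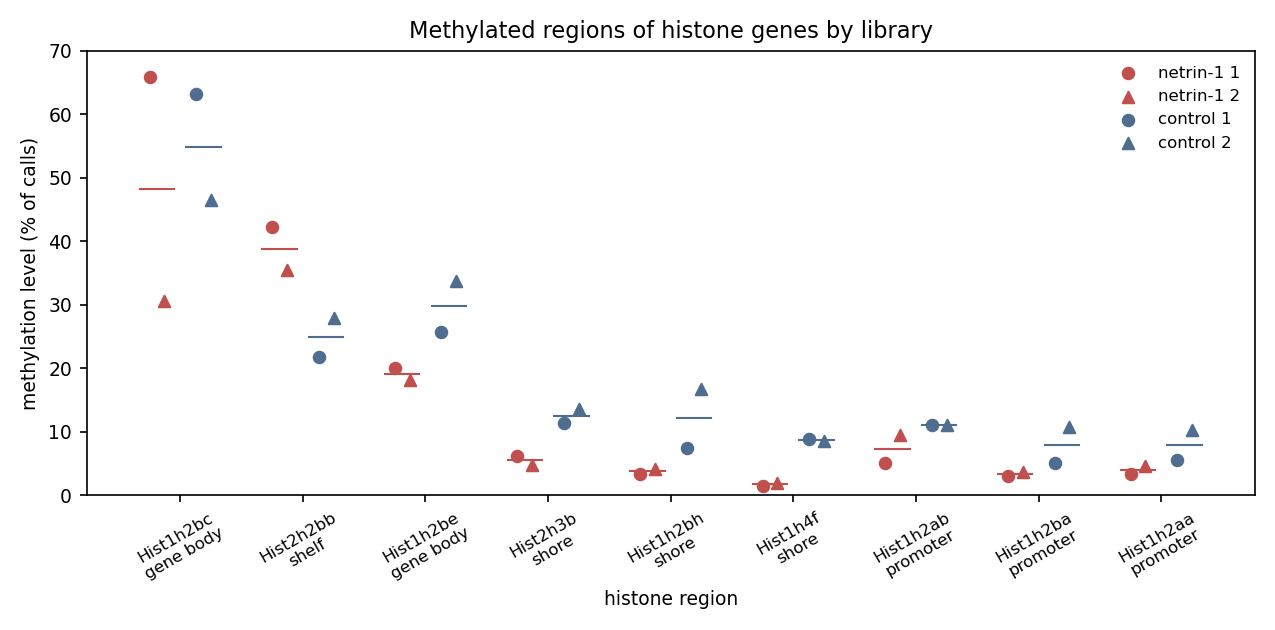
Methylation level in percent of calls (y axis) of 9 histone regions in each library (points), with group means as lines; the regions (x axis) were chosen after the values were seen. The Hist1h2be body and the shores and promoters shown lie lower in both netrin-1 libraries, the Hist2h2bb shelf lies higher in both, and the Hist1h2bc body overlaps.

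Around the islands, 28 of 53 islands, 37 of 106 shores and 17 of 106 shelves had at least 10 calls in every library. These features are not separate observations: the 123 measured histone features of all classes lie in 34 separate loci, 21 of the 82 island-table rows hold the same calls as another row, and 28 of the 54 shores and shelves overlap a listed island. None of the 7 tested passed the adjusted threshold, where 0.186% of all 11815 tested island features did. At an unadjusted p under 0.05, 3 of the 7 passed, against 12.1% of all. Without the information minimum, 75 were tested and 0 were called, against 0.964% of all.

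Islands averaged 1.03% ± 0.572 in netrin-1 and 1.32% ± 0.182 in control cells (SD, n = 2 each), a difference of -0.293 points (exact permutation p = 0.667), where 14330 other islands differed by -0.347 points. Both netrin-1 libraries were lower at 7 of the 28 and higher at 1, against 20.1% and 13.7% over all islands. The island named for Hist2h3c2, an H3 gene, stood at 0% and 0.167% in netrin-1, against 1.13% and 2.33% in control cells. It spans the Hist2h3c2 promoter with its repeated sequence and overlaps that of Hist2h2aa1, so its level is uncertain too. The island of Hist2h2be, an H2B gene, stood at 0% and 0.137% in netrin-1, against 0.943% and 0.898% in control cells. The higher one was the Hist1h1e island, which holds the same values as its promoter, as do the lower islands of Hist1h2ab and Hist1h2bm. The island named for Hist1h2ac overlapped between groups, at 0% and 2.93% in netrin-1, against 0% and 3.175% in control cells. Of 2 islands inside the long Hist1h2be model, one (chr13:23585009-23585335) had no methylated call in any library, which allows a level of up to 1.59% in netrin-1 and 0.977% in control cells. The other (chr13:23585618-23585879) had none in netrin-1 cells, which allows up to 0.4%, against 0.680% and 1.25% in control cells. Both islands were thus near 0% in both groups, although the body around them was at 18.1% to 33.7%.

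Shores averaged 1.68% ± 0.114 in netrin-1 and 2.93% ± 0.362 in control cells (SD, n = 2 each), with no overlap and a difference of -1.25 points (exact permutation p = 0.333). The 19264 other shores stood at 10.4% ± 0.427 in netrin-1 and 11.5% ± 0.108 in control cells, a difference of -1.14 points, so the histone shores were less methylated but differed by about as much. Both netrin-1 libraries were lower at 10 of the 37 and higher at 3, against 23.9% and 9.96% over all shores. A shore of Hist1h4f, an H4 gene (chr13:23551603-23553602), stood at 1.52% and 1.98% in netrin-1, against 8.78% and 8.56% in control cells, well apart and with close replicates on 198 to 327 calls. It held too few methylated calls for the test, and the same calls are listed as a shelf of Hist1h1d. A shore of Hist2h3b, an H3 gene (chr3:96266668-96268667), stood at 6.18% and 4.83% in netrin-1, against 11.4% and 13.6% in control cells (adjusted p = 0.297, quasi-binomial test). A shore of Hist1h2bh, an H2B gene (chr13:23543276-23545275), stood at 3.40% and 4.12% in netrin-1, against 7.45% and 16.8% in control cells (adjusted p = 0.225, quasi-binomial test), and control replicate 2 was again the highest. That shore holds the whole Hist1h3f promoter and overlaps the Hist1h2bh promoter, and in both promoters the groups overlapped. It also overlaps a tested shore of Hist1h3f, which differed by -2.905 points (adjusted p = 0.581, quasi-binomial test). A shore of Hist2h2bb, an H2B gene (chr3:96267677-96269676), stood at 4.575% and 2.92% in netrin-1, against 7.65% and 10.1% in control cells. It overlaps the Hist2h3b shore and shares calls with it, so they are not separate observations. A shore of Hist1h3b repeats the values of the Hist1h2ab promoter. The shore of Hist1h4n was high in a single library, at 4.41% and 0% in netrin-1, against 19.2% and 1.67% in control cells, and the same values are listed as a shelf of Hist1h2ap.

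The 3 shores that lay higher in both netrin-1 libraries were those of Hist1h2bl, Hist1h2ap and Hist1h2bf. The shore of Hist1h2bl, an H2B gene (chr13:21713805-21715804), stood at 12.5% and 1.22% in netrin-1, against 0% and 0% in control cells, a difference of 6.86 points. It rests on 16 to 82 calls per library, the controls at 0 allow a level of up to 2.5%, and netrin-1 replicate 1 was far above the rest. The shore of Hist1h2ap repeats the values of the Hist1h4n promoter, and that of Hist1h2bf the values of the Hist1h3d promoter, at 0.205% and 0.451% in netrin-1, against 0% and 0.153% in control cells.

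Shelves, the outermost zones, averaged 10.3% ± 0.9986 in netrin-1 and 10.4% ± 0.611 in control cells (SD, n = 2 each), a difference of -0.0991 points (exact permutation p = 1). The 10106 other shelves differed by -2.02 points, and the 17 histone shelves relative to them by 1.92 points, with no overlap between groups (exact permutation p = 0.333). Both netrin-1 libraries were lower at 3 of the 17 and higher at 3, against 28.0% and 10.1% over all shelves. The most methylated was a shelf of Hist1h2ac, an H2A gene (chr13:23686587-23688586), at 84.7% and 74.5% in netrin-1, against 92.5% and 72.5% in control cells. It lies inside the methylated Hist1h2bc body, so it is not a separate methylated region. A shelf of Hist2h2bb, an H2B gene (chr3:96280549-96282548), stood at 42.2% and 35.4% in netrin-1, against 21.7% and 27.9% in control cells. This was the largest positive difference among the tested members, 13.98 points, and did not pass the threshold (adjusted p = 0.406, quasi-binomial test). The other shelves higher in both netrin-1 libraries were those of Hist1h3h and Hist4h4. That of Hist1h3h, an H3 gene, overlaps the Hist1h2bl shore and stood at 16.7% and 1.30% in netrin-1, against 0% and 0% in control cells, on 12 to 77 calls per library, where the controls allow up to 2.94%. That of Hist4h4 stood at 2.46% and 1.42% in netrin-1, against 1.03% and 0.133% in control cells. Besides the Hist1h1d shelf, those of Hist1h2af and Hist1h4d were lower, with no methylated call in netrin-1 cells. That of Hist1h2af was at 0% in netrin-1, which allows up to 1.04%, against 1.30% and 0.518% in control cells, and that of Hist1h4d at 0% in netrin-1, which allows up to 0.3195%, against 0.442% and 1.06% in control cells. The Hist1h2af shelf repeats the values of the Hist1h4h promoter. The Hist1h4d shelf (chr13:23583917-23585916) spans both islands inside the Hist1h2be model, so neither shelf is a separate observation. A second shelf of Hist2h2bb (chr3:96265677-96267676) and a shelf of Hist1h4a overlapped between groups. The Hist2h2bb shelf, which also overlaps the Hist2h3b shore, stood at 20.6% and 30.4% in netrin-1, against 28.05% and 32.8% in control cells. The Hist1h4a shelf stood at 6.96% and 6.31% in netrin-1, against 1.79% and 10.9% in control cells.

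**Figure D4:**
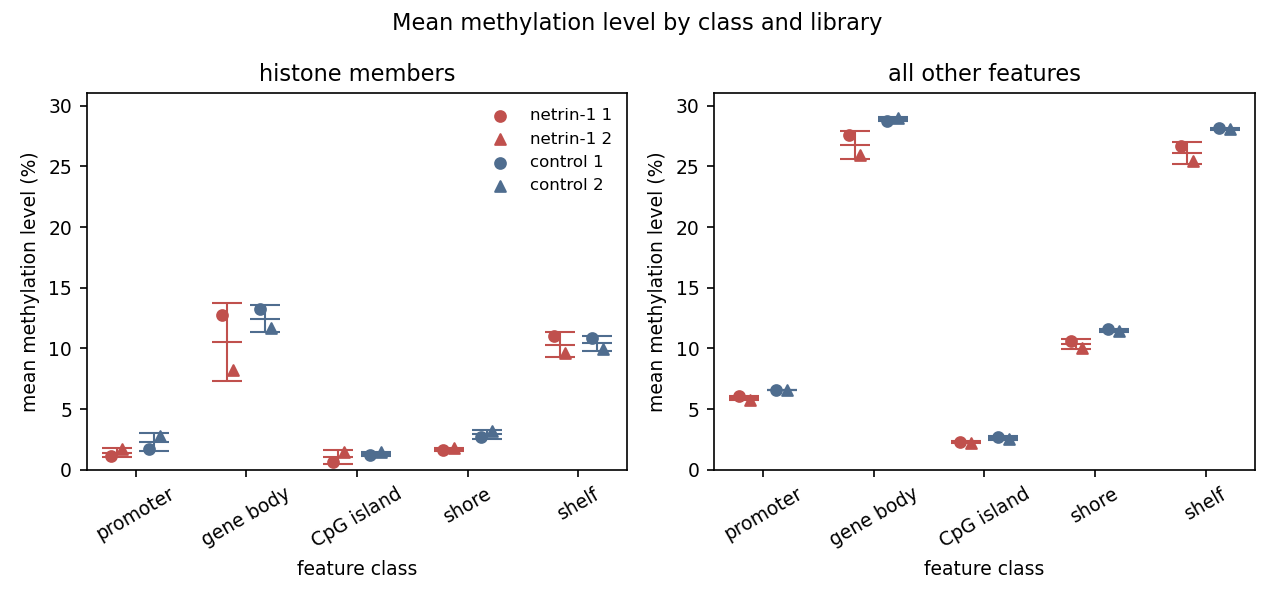
Mean methylation level in percent (y axis) by class of feature (x axis) in each library (points), with group means and SD (bars, n = 2 libraries), for histone members on the left and all other features on the right. Histone promoters, islands and shores lie under 4% in every library, and all other classes of the genome lie lower in netrin-1 libraries.

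The wider neighbourhood was read from the table of 100 kb windows, a test added after the data were seen. Histone promoters lie in 11 windows, and 1 of them was called by the quasi-binomial test, against 2.22% of 23743 tested windows. Of the 528 windows called over the whole genome, 523 were lower and 5 higher in netrin-1 cells. The called histone window (chr13:23500001-23600000) holds 14 promoters, the Hist1h2bh and Hist1h4f shores named above and part of the Hist1h2be body. Their differences and that of the window come from the same 100 kb, so they are not separate findings. The window stood at 22.5% and 16.97% in netrin-1, against 31.5% and 33.3% in control cells. It fell by 12.7 points to 19.7% ± 3.91 in netrin-1, against 32.4% ± 1.28 in control cells (SD, n = 2 each; adjusted p = 0.0144, quasi-binomial test, 0.000149 to 0.527 over 12 alternatives). With control replicate 2 left out the adjusted p was 0.0901, with netrin-1 replicate 2 left out 0.0832, and it was above the threshold with limma on percentage points (0.148) or on M values (0.135).

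The next window (chr13:23600001-23700000) holds 6 promoters and went the other way. It stood at 69.9% and 69.5% in netrin-1, against 63.5% and 51.8% in control cells, a difference of 12.03 points that missed the threshold (adjusted p = 0.0532, quasi-binomial test, 0.00264 to 0.599 over 12 alternatives). The window around Hist1h2ba and Hist1h2aa (chr13:23900001-24000000) stood at 24.2% and 21.4% in netrin-1, against 27.7% and 29.6% in control cells (adjusted p = 0.0864, quasi-binomial test). The windows at chr13:21700001-21800000 and chr13:22000001-22100000, with 12 and 5 promoters, stood between 2.52% and 6.29% in every library. The Hist2 window on chromosome 3 stood at 46.2% and 42.0% in netrin-1, against 44.2% and 43.3% in control cells. The 11 windows averaged 28.4% ± 1.88 in netrin-1 and 30.5% ± 0.527 in control cells, a difference of -2.07 points, where 25517 other windows differed by -3.89 points (exact permutation p for the difference between them = 0.667). The window table does not contain all calls of the promoters inside its windows. In control replicate 1 the 10 Hist2 promoters held 3847 calls and their whole window 1332.

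**Figure D5:**
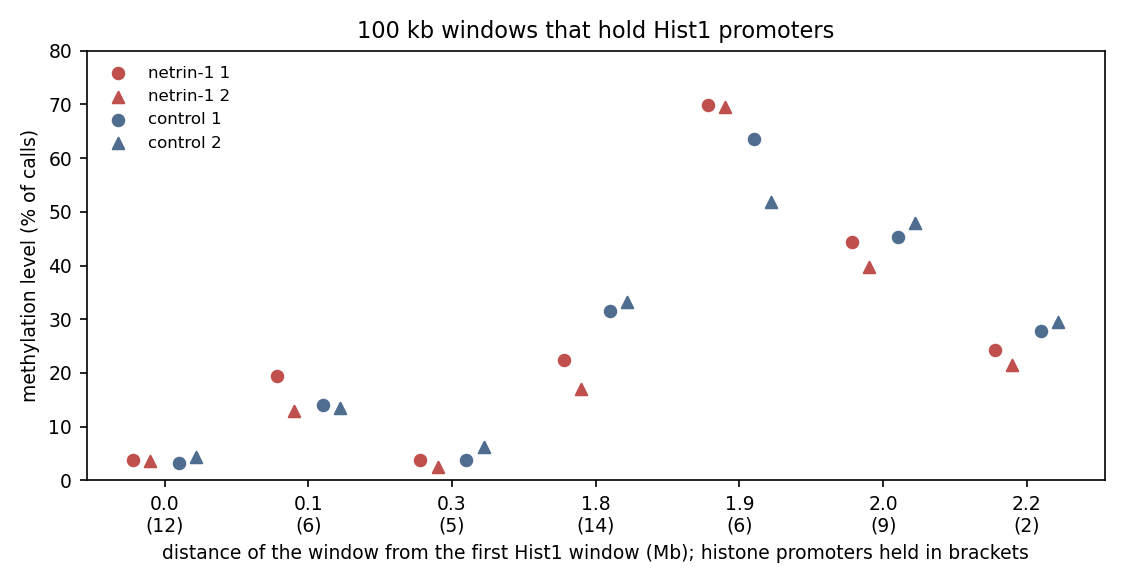
Methylation level in percent of calls (y axis) of the 7 windows of 100 kb on chromosome 13 that hold the main Hist1 groups, in each library (points), ordered by distance in Mb from the first (x axis, not to scale), with the number of histone promoters in brackets. The window with 14 promoters lies lower and its neighbour with 6 promoters higher in both netrin-1 libraries than in both controls.

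Scaled coverage of the Hist1 promoters was lower in both netrin-1 libraries than in both controls. Scaled to calls in the window table (calls per 1000000), the 55 Hist1 promoters held 249.5 and 281.3 calls in netrin-1, against 359.3 and 322.4 calls in control cells, a ratio of 0.779. All windows of chromosome 13 gave a ratio of 0.928, and the 8 windows that hold these promoters gave 0.907. The Hist2 promoters had a ratio of 0.993, where windows of chromosome 3 had 1.19. For Hist3 the ratios were 1.007 and 0.9985 (chromosome 11), and for the Hist4 promoter 0.8865 and 1.056 (chromosome 6). These ratios were not tested, and neither was the part of coverage in the levels above.

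The genes that make, process and carry histones were read from a list of 38 genes. It holds regulators and processing factors of histone mRNA (such as Slbp, Npat and Casp8ap2), replacement histones that are made outside S phase (such as H2afz and H3f3a), and histone chaperones (such as Chaf1a and Asf1a). Of their promoters, 35 had at least 10 calls in every library. Of these, 17 were lower and 17 higher in netrin-1 cells, with a median difference of 0 points, against -0.136 over promoters outside the histone clusters. One promoter could be tested and 0 passed. Slbp, whose protein binds the stem-loop of histone mRNA, stood at 10.98% and 4.45% in netrin-1, against 16.1% and 10.6% in control cells, with groups that overlapped (adjusted p = 0.293, quasi-binomial test). Npat stood at 0.618% and 0.480% in netrin-1, against 2.34% and 0.171% in control cells. Of 33 measured bodies, 23 were lower and 10 higher in netrin-1 cells, with a median difference of -1.05 points, against -1.74 over bodies outside the clusters, and 0 of 23 tested passed.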

How the data were processed

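RRBS was measured in 2 netrin-1 and 2 control libraries, grouped by title. The authors deposited, for gene features, CpG island features and 100 kb windows, the count of total and of methylated calls per library and the methylation level as a fraction, per the file headers. The submitters' processing notes name mm10, GRCm38 and FastQC; for the aligner, caller, filters and duplicate reads, no detail was found (not given in the sources used here). Methylated over total calls gave the deposited fraction back to within 5.55e-16 and, as a percent, is the level used. The window table held 32770000 and 44642064 calls in netrin-1 and 28004487 and 37394424 in control libraries. The labels name no molecular identifiers, so amplified reads need not be independent molecules and the upper limit of a group at 0, 3 calls divided by its total calls, covers counting error alone.

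Class levels are unweighted means over features with at least 10 calls in every library, compared over libraries by an exact two-sided permutation test. Single features were tested over the whole table with a quasi-binomial model of the calls, its dispersion moderated with limma 3.58.1 (R 4.3.3; robust, with a coverage trend and a floor of 1), and Benjamini-Hochberg adjustment at 0.05. Features also needed levels that were not all identical and total calls × level × (1 - level) averaging at least 25 per library. That minimum was taken over from an earlier analysis of these tables, which chose it after its counts had been seen. The test was checked on simulated data, where false calls among gene features ran above the nominal rate. Tables and figures used Python 3.11.15, pandas 2.3.3, numpy 2.4.6 and matplotlib 3.10.9. Sequences are from RefSeq.

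Members and lists were chosen with earlier results of these data known. Named were members that were called, the 5 highest levels and the 5 largest non-overlapping differences in each direction per class, the testis variants, the smaller clusters and the deepest promoter per family, some of them by ranges or by the region whose calls they repeat. The window test, the CCGG comparison, the leaving out of Hist1h2ba with Hist1h2aa or of Hist1h2be, the comparisons of islands, shores, shelves and windows with other features, and the sequences and regions shown were chosen after the data were seen. The 12 alternatives of the single-feature test changed the filters, the dispersion, the scale, the library set and the replicate block.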

Additional observations from a re-analysis of the deposited data

How the results depend on the processing

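The differences of histone promoters and of shores stayed negative under the weightings, call minimums and library sets tried. Leaving out 1 library at a time, they ran from -1.35 to -0.275 points for promoters and from -1.51 to -0.853 for shores. The other class means changed sign under some settings. Leaving out 1 library at a time, bodies ran from -5.87 to 0.331 points, islands from -0.697 to 0.112, shelves from -0.531 to 0.607, promoters relative to other promoters from -0.641 to 0.396 and bodies relative to other bodies from -2.95 to 1.66. The signs turned for bodies without netrin-1 replicate 2, for islands without netrin-1 replicate 1, for shelves without either netrin-1 library or control replicate 1, and for relative promoters without netrin-1 replicate 1 or control replicate 2. They turned for relative bodies without netrin-1 replicate 1 or control replicate 2. With 1 library left out, the minimum of 10 calls was applied to the remaining libraries, so the set of features could differ from that reported. For shelves without netrin-1 replicate 1, the sign turned only with that change of set. On the 17 reported shelves, netrin-1 replicate 2 stood at 9.62%, against 10.85% and 9.99% in control cells. Medians over features gave 0.980 points for bodies and 0.455 for shelves, and a minimum of 1 call gave 1.45 for shelves. Relative bodies, at 0.187 points as reported, gave -4.90 weighted by calls, -1.74 with a minimum of 1 call, -0.125 with 30 calls and -0.0623 against bodies of the histone length range.

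Histone gene features called numbered 0 as reported and 0 to 1 when 1 library was left out, the 1 being the Hist1h2be body. Windows called numbered 1 as reported, 0 to 3 when 1 library was left out, and 0 with limma (percentage points, M values or centred libraries) or with each dispersion left unmoderated. Whether the replicate numbers pair the libraries is not known: there would be only 2 pairs, and no label says what a number shares. Deviations of same-numbered libraries correlated at 0.00845 over 34930 gene features and at 0.469 over 123 histone features, which lie in 34 loci. With the replicate block, 1 gene feature and 3 windows were called.

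Some single regions changed sign without being called. With centred libraries and limma, the differences were 1.08 points (Hist2h4 shore), 1.33 (Hist2h4 promoter), 1.61 (Hist1h4a promoter), 1.25 (Hist1h4a island and Hist1h1a shelf), and 3.66, 1.87 and 1.82 (windows chr13:21700001-21800000, chr13:22000001-22100000 and chr13:51200001-51300000). Leaving out 1 library at a time, differences ran from -1.75 to 0.0869 points (Hist2h4 shore, turning without control replicate 2), -1.90 to 0.0112 (Hist2h4 promoter, likewise), -0.840 to 1.24 (Hist1h4a promoter and island, Hist1h1a shelf, turning without netrin-1 replicate 1), and -24.4 to 10.98 (Hist1h2bc body, turning without control replicate 1 or netrin-1 replicate 2). For windows they ran from -1.79 to 2.45 (chr3:96200001-96300000), -0.743 to 0.411 (chr13:21700001-21800000), -0.831 to 5.54 (chr13:21800001-21900000) and -4.19 to 0.176 (chr13:51200001-51300000). The cause of these changes was not tested. Of the measured histone features, 6 of 41 gene features and 7 of 82 island features passed the information minimum, which depends on both the depth and the level, so most near-unmethylated features were not tested singly.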
